A study of Mus musculus with 10 samples.

Results

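The genes described here are 10 genes of FGF9 signaling and its ERK feedback: the ligand Fgf9, the receptors Fgfr1, Fgfr2 and Fgfr3, the feedback inhibitors Spry1, Spry2, Spry4 and Dusp6, and the transcription factors Etv4 and Etv5. They were taken by gene symbol from a table of 24470 gene entries, and each of the 10 symbols was found. Male gonads with the mesonephros attached came from 5 C57BL/6 mouse embryos, M1 to M5, at E12.5. From each embryo, 1 gonad was kept in culture for 48 h in 75 µM GPI (CP 316819), a compound that blocks glycogen phosphorylase and thereby the breakdown of glycogen. The contralateral gonad was cultured for the same time with the vehicle, DMSO. After culture the mesonephros was cut away, and bulk RNA-seq of each gonad gave 5 vehicle and 5 GPI libraries. The libraries held between 10203679 and 15635322 counts.

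FGF9 is secreted by Sertoli cells of the fetal testis, where it helps to maintain Sox9 and to oppose Wnt4, and it also acts on germ cells. FGF receptors are tyrosine kinases that signal through RAS, RAF and MEK to ERK. ERK activity induces its own inhibitors, among them the Sprouty proteins and the ERK phosphatase DUSP6, as well as the ETS factors ETV4 and ETV5, in part by relieving repression by Capicua, so the transcripts of these genes are widely used as readouts of the pathway.

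A normalized count is the count a gene would have in a library of average TMM-scaled size. A gene was called when edgeR's quasi-likelihood test, with the mouse as a block, gave a Benjamini-Hochberg adjusted p under an FDR of 0.05 over the 13941 genes tested. Of the 10 genes, 9 passed the filter on low counts and were tested, and Etv4 did not. Called lower with GPI were 5 of these 9 genes: Spry4, Spry1, Fgfr3, Dusp6 and Fgfr1. None was called higher by edgeR (0 also at an unadjusted p under 0.05, and 0 with DESeq2 and with limma-voom). Among all tested genes, 22.9% were called, 11.9% lower and 11.1% higher. With library totals in place of TMM scaling, 1972 genes were called lower and 1238 higher, against 1654 and 1544 with TMM. In 4 of the 9 genes (Fgfr1, Spry1, Spry4 and Dusp6) every GPI gonad lay below every vehicle gonad, which was the case for 9.05% of all tested genes. The median log2 fold change was -0.44 over the 9 genes and 0.02 over all tested genes. In RNA of whole gonads, fewer cells of a type and less RNA per cell cannot be told apart.

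The vehicle gonad of mouse M1 had 706.5 normalized counts summed over 5 markers of mesonephric epithelium, against 59.4 to 310.4 in the other 4 vehicle gonads and 98.1 to 274.0 with GPI. Its sum of 7 macrophage markers was the highest too (861.5, against 528.6 to 619.4 in the other 4). It was also the vehicle gonad with the most Fgf9, Fgfr1 and Fgfr2. Values without mouse M1 are therefore given for the ligand and the receptors.

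**Figure D1:**
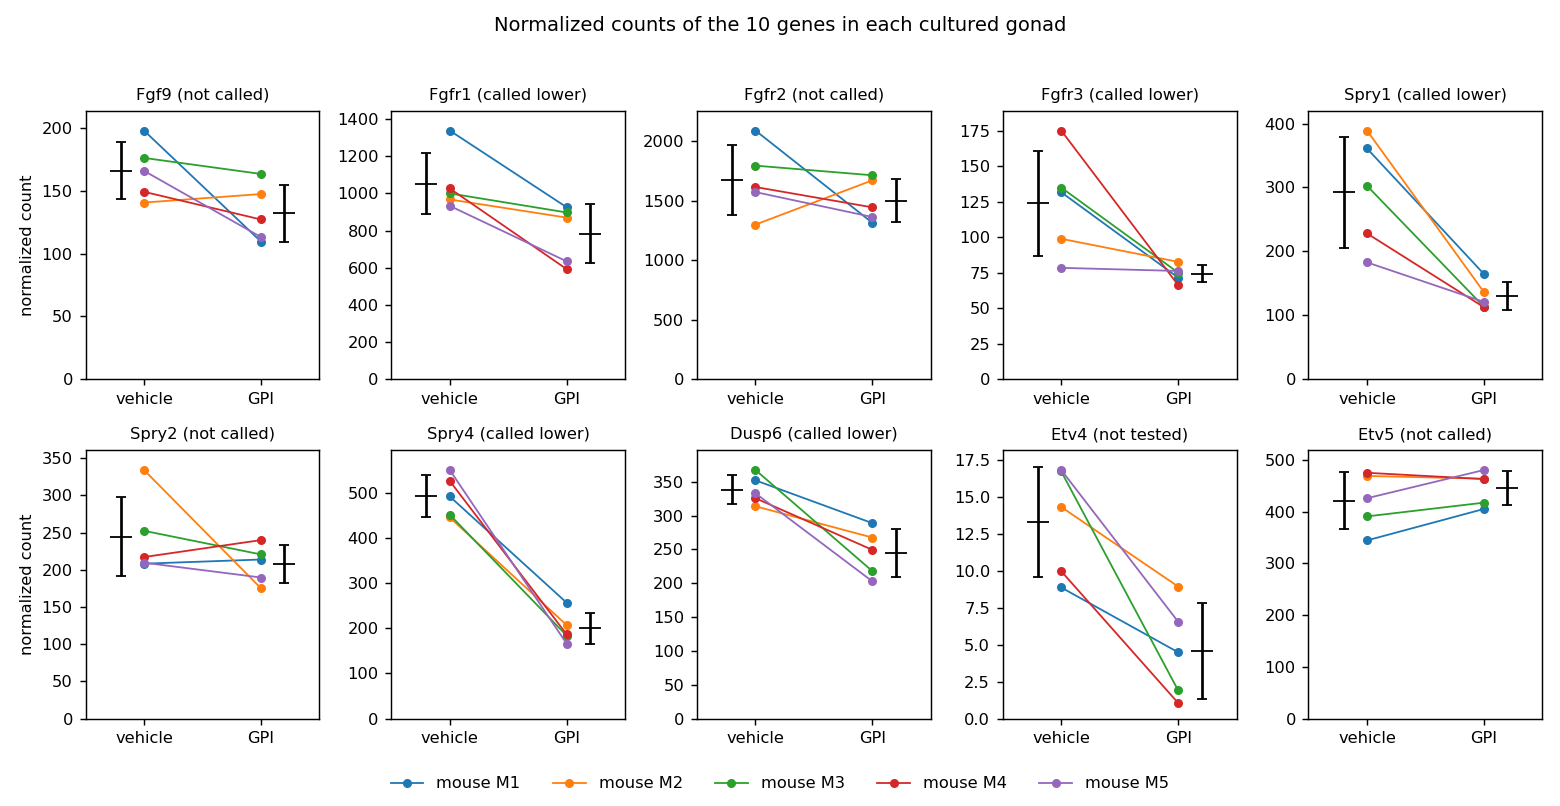
Normalized counts (vertical axis, from 0) of each of the 10 genes in the vehicle and GPI gonads, with lines joining the 2 gonads of a mouse and black bars for the mean ± SD (n = 5). Spry4, Spry1, Dusp6 and Fgfr1 show GPI gonads below all vehicle gonads, whereas the groups overlap in the other 6 genes.

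Fgf9 encodes the ligand (Entrez Gene 14180, mm10 chromosome 14 from 58072686 to 58112720, plus strand). The vehicle gonads of mice M1 to M5 had 198.2, 140.8, 176.4, 149.4 and 166.1 normalized counts. Their GPI gonads had 109.7, 147.6, 163.6, 127.3 and 113.3. The GPI value was lower in 4 of 5 mice, M2 being the exception, and the ranges of the groups overlapped. The mean was 166.2 ± 22.7 (SD, n = 5) with vehicle and 132.3 ± 22.9 with GPI. The log2 fold change was -0.33 (95% confidence interval -0.68 to 0.02), which did not pass the threshold (edgeR, Benjamini-Hochberg adjusted p = 0.169). Without mouse M1 it was -0.22 (edgeR with Benjamini-Hochberg adjusted p = 0.404, within a range of 0.0961 to 0.404 over the alternatives).

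The genes with the profile most like that of Fgf9 across the 10 libraries, by Pearson correlation of log2 counts, were Usp34 (0.909), 2700038G22Rik (0.902), Nmi (0.899), Eri1 (0.899) and Uhmk1 (0.898). Ranked were the 11105 tested genes that averaged 50 counts or more. The 10 libraries come from 5 embryos, and the coefficients are a description only.

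Fgfr1 encodes a receptor tyrosine kinase (Entrez Gene 14182, chromosome 8 from 25518759 to 25575718, plus strand). Vehicle gonads of M1 to M5 had 1338.7, 967.7, 1000.5, 1027.0 and 933.3 normalized counts, and GPI gonads 925.6, 869.9, 897.6, 592.3 and 634.2. All 5 GPI gonads lay below the lowest vehicle gonad, by a small margin in M1, whose vehicle gonad was far above the other vehicle gonads. Fgfr1 was called lower, at a log2 fold change of -0.44 (standard error 0.10, edgeR with Benjamini-Hochberg adjusted p = 0.00618). Without mouse M1 it was -0.43. The gene overlaps Gm16159 on the other strand, which had 2 to 23 counts per library, and the counts do not separate strands.

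Fgfr2 encodes the receptor with the highest level of the 3 per kilobase of exon (Entrez Gene 14183, chromosome 7 from 130162451 to 130266808, minus strand). It had 1300.7 to 2091.7 normalized counts in vehicle gonads and 1315.1 to 1715.4 in GPI gonads. The ranges overlapped almost wholly, and the direction differed between mice, with a lower GPI value in 4 and a higher one in M2. The log2 fold change was -0.15 (95% confidence interval -0.39 to 0.10, edgeR with Benjamini-Hochberg adjusted p = 0.401) and ran from -0.27 without mouse M2 to -0.04 without M1 (adjusted p = 0.0729 and 0.852).

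Fgfr3, the least abundant of these receptors (Entrez Gene 14184, chromosome 5 from 33721724 to 33737068, plus strand), had 131.8, 99, 135.1, 175.3 and 78.5 normalized counts in the vehicle gonads of M1 to M5. The GPI gonads had 71.6, 82.7, 75.1, 66.3 and 76.3. The GPI gonads were close together and each was lower than its contralateral gonad, but the vehicle gonads were spread and that of M5 was within the GPI range. Fgfr3 was called lower, at a log2 fold change of -0.69 (standard error 0.21, edgeR with Benjamini-Hochberg adjusted p = 0.0301). Without mouse M1 or M3 the value was -0.66 in both fits, and without M4 it was -0.51. The call was then lost (adjusted p = 0.0654, 0.0967 and 0.154, within a range of 0.0123 to 0.154 over the alternatives).

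Levels of different genes were compared as RPKM, that is, per kilobase of exon with TMM-scaled library sizes. Vehicle gonads had RPKM levels of 26.6 ± 4.64 (SD, n = 5) for Fgfr2, 16.4 ± 2.54 for Fgfr1 and 2.29 ± 0.685 for Fgfr3. Fgf9 had an RPKM level of 3.0 ± 0.41, and its spread overlapped that of Fgfr3. RPKM levels of Dusp6 (9.82 ± 0.619), Spry2 (9.50 ± 2.07), Etv5 (8.48 ± 1.11), Spry4 (8.41 ± 0.782) and Spry1 (8.18 ± 2.43) followed each other within about their spreads. Etv4 came last with 0.451 ± 0.126. With GPI, RPKM levels were 8.98 ± 0.659 for Etv5, 8.08 ± 0.997 for Spry2 and 7.12 ± 1.02 for Dusp6, whereas Spry1 (3.62 ± 0.608) and Spry4 (3.41 ± 0.595) were below these 3 genes. The 5 genes of like level in vehicle gonads were thus split in GPI gonads, with Spry1 and Spry4 apart.

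Spry4 encodes a Sprouty protein, an inhibitor of receptor tyrosine kinase signaling to ERK (Entrez Gene 24066, chromosome 18 from 38586265 to 38601268, minus strand). Vehicle gonads of M1 to M5 had 491.6, 445.1, 451.1, 525.9 and 550.1 normalized counts. Their GPI gonads had 256.3, 206.7, 183.5, 186.2 and 165.6. The groups were far apart, and each GPI gonad held between 30.1% and 52.1% of the normalized count of its contralateral gonad. The log2 fold change was -1.31 (standard error 0.13, edgeR with Benjamini-Hochberg adjusted p = 5.09e-06), and the mean of the GPI group was at 40.3% of vehicle by the fit.

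Spry1 encodes another Sprouty protein (Entrez Gene 24063, chromosome 3 from 37639947 to 37644599, plus strand). Its vehicle gonads had 361.0, 389.0, 302.6, 228.1 and 182.8 normalized counts for M1 to M5. The GPI gonads had 164.5, 136.2, 113.2, 112.6 and 120.9. Vehicle gonads differed more among themselves than GPI gonads did, and the lowest of them, from M5, was still above the highest GPI gonad. This gave a log2 fold change of -1.14 (standard error 0.15, edgeR with Benjamini-Hochberg adjusted p = 7.15e-05).

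Spry2, also a Sprouty gene (Entrez Gene 24064, chromosome 14 from 105891947 to 105896819, minus strand), had 208.2, 334.1, 252.4, 217.1 and 209.5 normalized counts in vehicle gonads of M1 to M5. The GPI gonads had 213.8, 175.1, 220.6, 239.9 and 189.6. Lower values with GPI were seen in M2, M3 and M5, and only M2 showed a large difference. The log2 fold change was -0.22 (95% confidence interval -0.55 to 0.11) and was not called (edgeR with Benjamini-Hochberg adjusted p = 0.35). Without mouse M2 it was -0.04.

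Dusp6 encodes a phosphatase that inactivates ERK (Entrez Gene 67603, chromosome 10 from 99263231 to 99267489, plus strand). Vehicle gonads had 352.1, 313.8, 367.4, 325.7 and 332.9 normalized counts for M1 to M5, and GPI gonads 288.8, 267.5, 217.8, 249.3 and 202.7. The vehicle gonads were close together and all GPI gonads lay below them. Its log2 fold change was -0.47 (standard error 0.12, edgeR with Benjamini-Hochberg adjusted p = 0.0101). Without mouse M3 it was -0.42 and just missed the threshold (adjusted p = 0.0529, within 0.00493 to 0.0529 over the alternatives).

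Promoter windows are shown for Dusp6, Spry1 and Spry2, feedback genes that share a role but not the size of their difference, since Capicua, the repressor named above, binds known octamers. RefSeq windows of 300 bases on GRCm38.p6 ran from 250 bases before to 50 after a gene start. Windows of 7 of the 10 genes were searched, 9 windows in all. No window of Fgfr1, Spry4 or Etv4 was searched, so nothing can be said of octamers in these genes. Capitals mark matches to the Capicua octamers TGAATGAA, TGAATGGA, TCAATGAA and TCAATGGA, searched on both strands. The 3 matches lie on the strand opposite to the gene, so they are printed as their reverse complement. The windows are chr10:99262981-99263280 (plus strand) for Dusp6, chr3:37639697-37639996 (plus strand) for Spry1 and chr14:105896770-105897069 (minus strand) for Spry2.
Dusp6: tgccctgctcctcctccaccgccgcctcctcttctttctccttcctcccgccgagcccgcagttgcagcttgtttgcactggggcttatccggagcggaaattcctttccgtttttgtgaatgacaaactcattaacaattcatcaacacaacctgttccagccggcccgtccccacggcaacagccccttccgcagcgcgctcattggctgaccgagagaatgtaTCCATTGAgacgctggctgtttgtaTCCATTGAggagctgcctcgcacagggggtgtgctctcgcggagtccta
Spry1: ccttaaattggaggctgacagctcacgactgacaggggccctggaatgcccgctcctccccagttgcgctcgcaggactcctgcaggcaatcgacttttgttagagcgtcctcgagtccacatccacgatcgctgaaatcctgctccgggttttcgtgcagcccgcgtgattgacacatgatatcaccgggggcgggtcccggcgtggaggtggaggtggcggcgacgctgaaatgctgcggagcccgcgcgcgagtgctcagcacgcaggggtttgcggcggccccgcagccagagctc
Spry2: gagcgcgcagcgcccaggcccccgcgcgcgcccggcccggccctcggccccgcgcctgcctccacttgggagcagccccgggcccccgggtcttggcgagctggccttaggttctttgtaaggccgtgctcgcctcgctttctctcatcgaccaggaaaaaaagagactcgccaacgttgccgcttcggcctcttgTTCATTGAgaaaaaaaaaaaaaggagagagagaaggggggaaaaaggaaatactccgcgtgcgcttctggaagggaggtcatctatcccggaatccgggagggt
Dusp6 had 2 matches to TCAATGGA, with first bases at -24 and 2 relative to its start, and Spry2 had 1 match to TCAATGAA at -54. The Spry1 window had 0 matches, as had those of Fgf9, Fgfr2, Fgfr3 and Etv5. Any of the 4 octamers was present in 3.84% of 32851 promoter windows. The ETS octamer CCGGAAGT, present in 3.89% of windows, was in none of the 9 windows, and its core CGGAAG, which it contains and which 16.9% of windows hold, was in the Dusp6 window only, with its first base at -62. Dusp6, called lower, and Spry2, not called, thus both held an octamer, and Spry1, called lower, held none. Spry4, the feedback gene with the largest decrease among the tested genes described here, is missing from this contrast. A match is a description of the letters in the window and does not show binding.

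The profiles most like that of Dusp6 across the 10 libraries were those of Reln (Pearson correlation 0.972), Fam219a (0.97), Pim1 (0.957), Prkg1 (0.947) and Ackr3 (0.946), ranked and limited as for Fgf9. The 10 libraries include both treatments. Each of these genes was itself called lower with GPI, at log2 fold changes of -1.25, -1.68, -0.76, -1.03 and -1.12 in the order given. The part of the treatment in these correlations was not tested.

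Etv4 and Etv5 encode ETS transcription factors downstream of ERK. Etv4 (Entrez Gene 18612, chromosome 11 from 101769748 to 101785310, minus strand) was near the limit of detection. The vehicle gonads of M1 to M5 had 8, 12, 15, 10 and 22 raw counts, and the GPI gonads 4, 11, 2, 1 and 6. In normalized counts this was 8.86 to 16.8 with vehicle and 1.05 to 8.92 with GPI. Each GPI gonad was lower than its contralateral gonad, and the groups overlapped slightly because the GPI gonad of M2 exceeded the vehicle gonad of M1. When no filter on low counts was applied, the log2 fold change was -1.66 (standard error 0.69), which was not called (edgeR with Benjamini-Hochberg adjusted p = 0.104).

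Etv5 (Entrez Gene 104156, chromosome 16 from 22381313 to 22439570, minus strand) had 344.4, 469.0, 390.8, 475.1 and 425.9 normalized counts in vehicle gonads of M1 to M5. The GPI gonads had 405.2, 463.7, 417.4, 462.9 and 480.5. The GPI range lay almost wholly within the vehicle range, with higher values in 3 mice and lower values in 2. The log2 fold change was 0.09 (95% confidence interval -0.11 to 0.29, edgeR with Benjamini-Hochberg adjusted p = 0.563), so that a decrease of the size seen in Dusp6 was outside its interval.

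**Figure D2:**
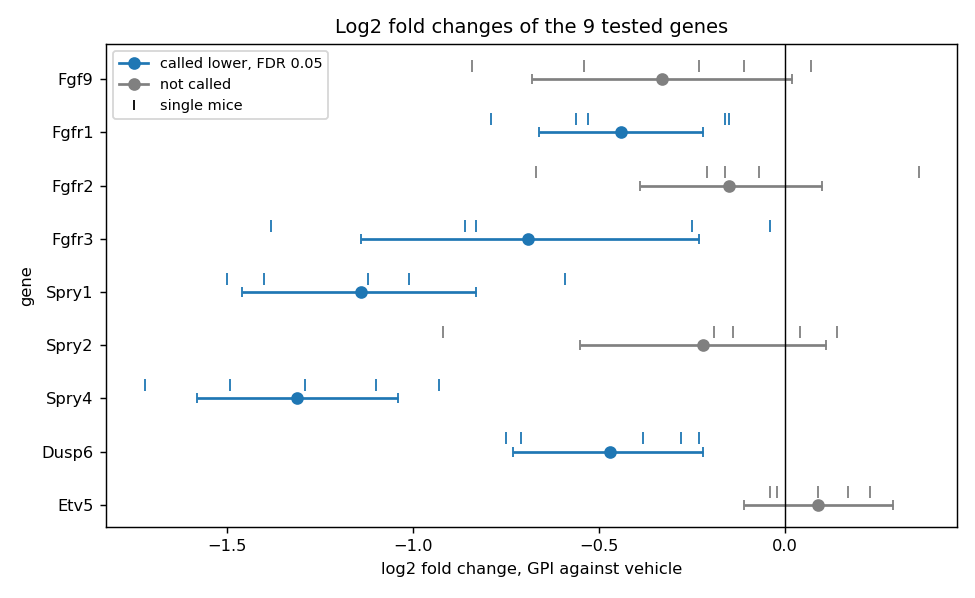
Log2 fold changes of GPI against vehicle (horizontal axis) for the 9 tested genes, with points and bars for the fitted value and its 95% confidence interval and ticks for single mice, blue where called lower at an FDR of 0.05. Spry4 (-1.31) and Spry1 (-1.14) lie farthest to the left, and the intervals of Fgf9, Fgfr2, Spry2 and Etv5 include 0.

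To ask whether related genes differed in their response, ratios of the raw counts of 2 genes were taken within each library, without scaling of libraries. A prior count of 2 was added to each count, so a ratio with few counts, such as Etv5 to Etv4, also depends on this prior and on depth. There were 7 ratios, each tested by an exact two-sided permutation test over 252 regroupings of 5 against 5 libraries, for which the smallest possible p is 0.00794. The regroupings do not use the pairing of gonads by mouse, which the sign flip test given below does. The log2 ratio of Spry2 to Spry1 was -0.23 ± 0.36 (SD, n = 5) with vehicle and 0.68 ± 0.33 with GPI. It was higher with GPI in 5 of 5 mice, by 0.91 on average (exact permutation p = 0.00794, Benjamini-Hochberg adjusted over the 7 ratios 0.0185). The ratio of Spry4 to Spry2 was lower in 5 of 5 mice, with a difference of -1.09 in the mean log2 ratio (exact permutation p = 0.00794, adjusted 0.0185). Spry1 and Spry4 therefore both fell relative to Spry2. Between Spry4 and Spry1 the difference was -0.18 with a standard error of 0.26 (exact permutation p = 0.524), and the mice were divided, 3 higher and 2 lower.

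Among the receptors, the log2 ratio of Fgfr3 to Fgfr2 went from -3.77 ± 0.41 (SD, n = 5) to -4.29 ± 0.15, lower in 4 of 5 mice (exact permutation p = 0.0238, adjusted 0.0417). The ratio of Fgfr2 to Fgfr1 differed by 0.29 (exact permutation p = 0.0873, adjusted 0.122) and that of Fgfr3 to Fgfr1 by -0.23 (exact permutation p = 0.31, adjusted 0.361). With 1 mouse left out, the Fgfr3 to Fgfr1 difference ran from -0.43 (without M5) to -0.12 (without M3). Without mouse M1 the Fgfr2 to Fgfr1 ratio differed by 0.40 (exact permutation p adjusted over the ratios 0.05, within 0.05 to 0.32 over the alternatives). The log2 ratio of Etv5 to Etv4 was higher with GPI in 5 of 5 mice, by 1.43 (exact permutation p = 0.00794, adjusted 0.0185), and rests on the few counts of Etv4 given above. An exact sign flip test within the 5 mice cannot go below 0.0625 and so could call none of these ratios. Spry2/Spry1, Spry4/Spry2 and Etv5/Etv4 reached that floor (adjusted 0.146), whereas Fgfr3/Fgfr2, with 1 mouse in the other direction, did not (adjusted 0.219). With 1 mouse left out, 4 against 4 libraries give at least 0.0286 before adjustment, the value reached by Spry2/Spry1, Spry4/Spry2 and Etv5/Etv4 in each case, so their adjusted p is no measure of stability there. Their differences were then 0.83 to 1.02, -1.32 to -0.95 and 1.18 to 1.62. For Fgfr3/Fgfr2 the difference was -0.70 (without M5) to -0.35 (without M4). Its exact permutation p adjusted over the ratios was 0.05 without M5, 0.08 without M1 and 0.15 without M2, M3 or M4.

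**Figure D3:**
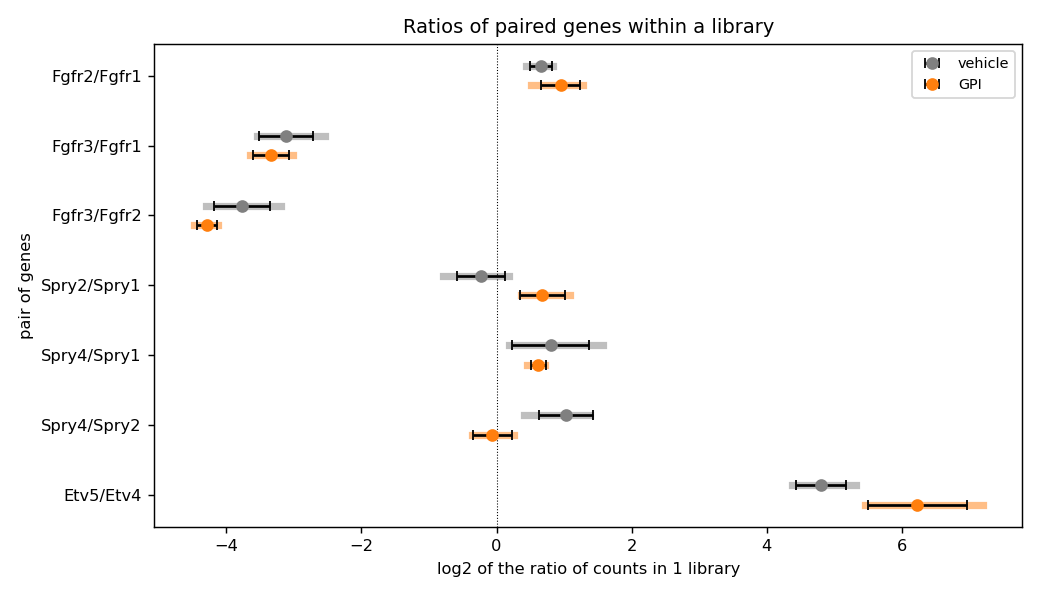
Log2 ratios of the counts of 2 genes in the same library (horizontal axis) for 7 pairs, with points and black bars for the mean ± SD and pale bars for the lowest to highest of the 5 vehicle (gray) and 5 GPI (orange) libraries. The groups are separate for Spry2/Spry1, Spry4/Spry2 and Etv5/Etv4, and overlap for the other 4 pairs.

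Around these 10 genes, 94 other genes of the pathway were taken in 5 lists, 73 of which were tested. In all, 18 of the 73 were called lower and 8 higher, beside 11.9% and 11.1% of all tested genes. The list of other ERK feedback genes and targets had 8 of 17 tested genes called lower and 0 higher by edgeR (0 also at an unadjusted p under 0.05, with DESeq2 and with limma-voom), with a median log2 fold change of -0.41. Il17rd, which encodes the FGF receptor antagonist Sef, had 579.8 to 747.0 normalized counts with vehicle and 369.9 to 473.4 with GPI, without overlap. Its log2 fold change was -0.64 (standard error 0.10, edgeR with Benjamini-Hochberg adjusted p = 0.000344). Spred3, of a family related to Sprouty, was at -0.98 (standard error 0.17, adjusted p = 0.000695 in the same edgeR test with Benjamini-Hochberg adjustment). Ier3, an immediate early gene, was at -1.27, and Ccnd1, which encodes cyclin D1, at -1.20. Both were lower in 5 of 5 mice but overlapped between groups, Ier3 through the GPI gonad of M1 and Ccnd1 through that of M2. Spred2 (-0.41) and Etv1 (-0.41) were called lower as well. The call of Spred2 was lost without mouse M2 or M4, at -0.30 and -0.36 (edgeR with Benjamini-Hochberg adjusted p = 0.0639 and 0.0824), and that of Etv1 without M1, M2 or M3, at -0.35, -0.36 and -0.45 (0.0735, 0.0752 and 0.0554). Spred1 was at -0.07 and Dusp4 at -0.30, and neither was called. The Dusp4 value rested on single mice, with -0.60 without M1 and -0.07 without M5. Spry3 had 5.97 to 52 normalized counts with vehicle and 25.7 to 49.4 with GPI and was not called, with a log2 fold change of 0.09 without M2 and 0.87 without M1.

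The kinases and adaptors of the RAS-ERK cascade itself had a median log2 fold change of -0.03, with 4 of 20 tested genes called lower and 1 higher, a share near the 22.9% of all tested genes called. Among those called lower were Rps6ka1 (-0.78) and Rps6ka3 (-0.41), which encode RSK kinases activated by ERK, and Gab1 (-0.31), a docking protein gene whose call was lost without mouse M4 at a value of -0.30 (edgeR with Benjamini-Hochberg adjusted p = 0.0538). Sos1, which encodes a RAS activator, was called higher at 0.25, a call lost at 0.20 without mouse M1 and at 0.25 without M3 (edgeR with Benjamini-Hochberg adjusted p = 0.0684 and 0.0588). With library totals in place of TMM scaling it was 0.20 (adjusted p = 0.0511). Frs2, which encodes the adaptor bound to FGF receptors, was at 0.00 with a standard error of 0.07, and Frs3 was too low to be tested. The cascade list was thus near the median of all genes, and the feedback list was below it; the difference between the lists was not tested.

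Of 17 other FGF ligand genes, 5 were tested, with 1 called higher and 0 lower by edgeR (0 also at an unadjusted p under 0.05, with DESeq2 and with limma-voom) and a median log2 fold change of 0.35. The gene called higher was Fgf7, with 1 to 9 raw counts in vehicle gonads and 14 to 39 in GPI gonads and a log2 fold change of 2.46 (standard error 0.52, edgeR with Benjamini-Hochberg adjusted p = 0.00325). It overlaps Fam227b on the other strand, which had 1 to 18 counts per library, so part of these counts may not be its own. Fgf1 (-0.39) and Fgf2 (0.34) were not called. With 1 mouse left out, Fgf1 ran from -0.78 (without M2) to -0.04 (without M1), and Fgf2 from 0.17 (without M2) to 0.43 (without M5). Fgf1 overlaps Gm5820 on the other strand with 14 to 59 counts. Fgf3, Fgf4, Fgf6, Fgf8 and Fgf15 had 0 counts in all 10 libraries.

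Co-receptors and heparan sulfate genes, which shape the binding of FGFs to their receptors, had a median log2 fold change of 0.00, with 3 of 19 tested genes called lower and 2 higher, again near the 22.9% of all tested genes. Sdc3, which encodes a heparan sulfate proteoglycan, had 430.7 to 625.5 normalized counts with vehicle and 140.6 to 199.2 with GPI. This was a log2 fold change of -1.69 (standard error 0.14, edgeR with Benjamini-Hochberg adjusted p = 1.2e-06). Sulf1, a heparan sulfate endosulfatase gene, was at -0.58, and Sdc2 at -0.29. Sdc4 (0.28) and Ndst1 (0.22) were called higher by a narrow margin. The call of Sdc4 was lost without mouse M1, M2, M3 or M4 and with library totals, and that of Ndst1 without M2, M3, M4 or M5 and with most other alternatives (edgeR or DESeq2, Benjamini-Hochberg adjusted p up to 0.188 for Sdc4 and 0.219 for Ndst1). With 1 mouse left out, Sdc4 was at 0.20 to 0.37 and Ndst1 at 0.18 to 0.26. The other receptor genes Fgfr4 (0.26, from -0.09 without M5 to 0.50 without M3) and Fgfrl1 (0.43) were not called, although Fgfrl1 was called without mouse M2 at 0.60.

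Of 12 tested genes tied to FGF9 in the fetal gonad, 4 were called higher and 3 lower, with a median log2 fold change of -0.26. Sox9, which specifies Sertoli cells and lies in a loop with Fgf9, had 983.8 to 1545.3 normalized counts with vehicle and 1494.2 to 2141.0 with GPI. Its value was higher with GPI in 5 of 5 mice, at a log2 fold change of 0.59 (standard error 0.09, edgeR with Benjamini-Hochberg adjusted p = 0.000408). Wnt4, which FGF9 opposes, was lower in 5 of 5 mice at -0.78 (standard error 0.11, adjusted p = 0.000157 by edgeR with Benjamini-Hochberg adjustment). Cyp26b1, which encodes an enzyme that degrades retinoic acid, was higher at 1.81 and Nr5a1 at 1.11, without overlap between groups. Lefty2, an antagonist of Nodal, was lower at -2.50, with 32 to 180.3 normalized counts with vehicle and 8.42 to 19 with GPI. Sry, the sex-determining gene, had 0 counts in the 5 vehicle gonads and at most 2 in a GPI gonad.

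**Figure D4:**
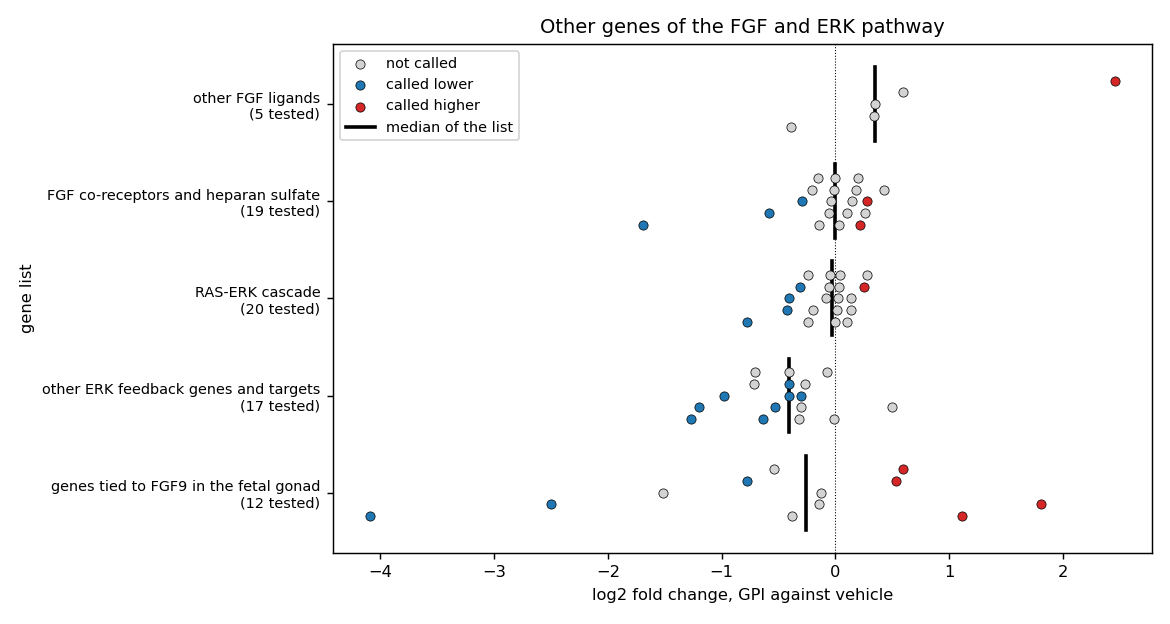
Log2 fold changes of GPI against vehicle (horizontal axis) for the tested genes of 5 lists, 1 point per gene, colored by call at an FDR of 0.05, with a black line at the median of each list. The feedback list has 8 genes called lower and its median at -0.41, and the cascade list has its median at -0.03.

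Markers of several cell types moved with these genes. The 10 endothelial markers were all called lower, with a median log2 fold change of -3.26, and Cdh5, with the highest mean RPKM among them with vehicle (57.4), was at -3.63. With GPI, Erg had the highest (5.95). Their summed normalized counts in M1 to M5 were 10033.3, 10152.4, 9825.5, 11122.3 and 10263.1 with vehicle and 1213.2, 1432.5, 948.0, 754.4 and 904.4 with GPI. Of 8 tested germ cell markers, 7 were called lower (median -3.67). Their sums went from 1129.4, 2278.0, 1564.4, 1975.2 and 847.2 to 244.0, 264.3, 143.6, 137.8 and 227.7, and Ddx4 was at -2.72. Their highest mean RPKM was that of Dppa3 with vehicle (35.1) and of Rnf17 with GPI (1.29). Both cell types were thus represented far less in RNA of every GPI gonad.

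Macrophage markers were called lower in 6 of 7 genes (median -1.91). Their sums in M1 to M5 were 861.5, 528.6, 614.2, 618.6 and 619.4 with vehicle and 301.1, 283.8, 242.5, 165.2 and 180.9 with GPI, and C1qb had their highest RPKM in both groups (means 6.9 with vehicle and 1.85 with GPI). Of 6 pericyte and smooth muscle markers, 3 were called lower (median -0.48), with sums of 2420.6, 3379.4, 3307.5, 2822.9 and 2772.4 with vehicle and 2237.3, 1974.9, 1968.3, 1666.5 and 1982.0 with GPI. Acta2, with their highest RPKM in both groups (means 45.1 with vehicle and 41.8 with GPI), was not called (-0.12, from -0.27 without M1 to -0.03 without M2), and Rgs5, which marks pericytes, was at -4.32.

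In the other direction, 7 of 10 Sertoli cell markers were called higher (median 0.60). Their sums were 2979.8, 4649.0, 3434.8, 4040.1 and 4587.2 with vehicle and 3777.4, 6097.4, 6351.9, 7541.4 and 6016.8 with GPI, and Cst9, not called, had their highest RPKM in both groups (means 52.9 with vehicle and 48.9 with GPI). All 5 tested fetal Leydig cell markers were called higher (median 2.65), with sums of 1304.4, 2838.8, 4132.8, 2042.0 and 5585.3 with vehicle and 10098.7, 10664.2, 16557.6, 18912.5 and 13744.4 with GPI. Hsd3b1, of a family of similar genes, had their highest RPKM in both groups (means 75.2 with vehicle and 230.8 with GPI).

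Of 8 interstitial progenitor markers, 2 were called higher and 3 lower (median -0.15). Their sums, lower with GPI in 5 of 5 mice, were 23973.1, 25315.3, 25538.0, 24068.4 and 25591.2 with vehicle and 21541.7, 23338.9, 21187.4, 19781.5 and 23462.6 with GPI, and the highest mean RPKM was that of Nes with vehicle (88.5) and of Pdgfra with GPI (64.6). Nes was called lower, at -1.36, from a mean of 6681.3 normalized counts with vehicle to 2608.3 with GPI. That fall is larger than the fall of the mean sum of the list (24897.2 to 21862.4). The lower mean sum therefore rests on Nes, while Pdgfra (0.33) and Maf (0.49) were called higher. Of 5 tested coelomic epithelium markers, 0 were called by edgeR (0 also at an unadjusted p under 0.05, with DESeq2 and with limma-voom). Their sums were 1884.6, 2233.8, 2313.7, 2013.1 and 1639.5 with vehicle and 1964.2, 2139.5, 2241.2, 1892.7 and 2219.5 with GPI, and Lhx9 had their highest RPKM in both groups (means 15.4 and 15.6). Of the mesonephric epithelium markers only Pax8, with the highest RPKM in both groups (means 5.67 and 4.01), was tested, and it was not called (-0.28, from -0.55 without M2 to -0.01 without M1). The sums of that list were 706.5, 119.3, 310.4, 137.5 and 59.4 with vehicle and 181.3, 274.0, 114.1, 110.5 and 98.1 with GPI. The highest mean RPKM was within about its SD of the next gene in the endothelial list with vehicle, and in the Sertoli, germ cell, endothelial, Leydig, interstitial and macrophage lists with GPI, so these ranks are not firm. No gene of the 9 marker lists was at 0 in all libraries. The part of these markers in the values of the 10 genes was not tested.

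**Figure D5:**
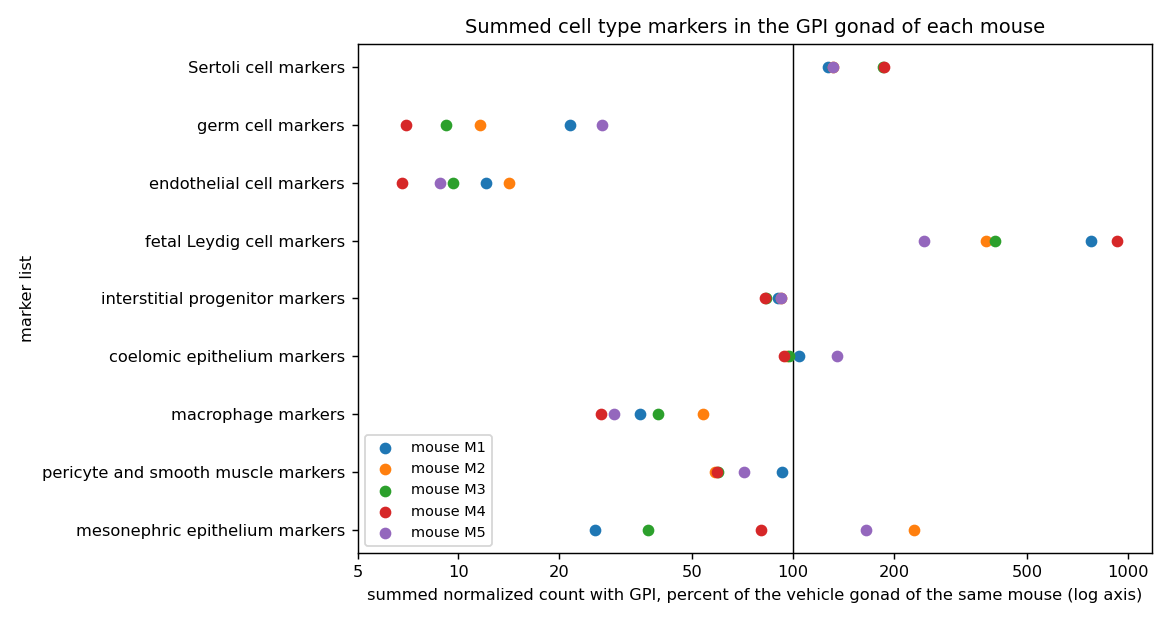
Summed normalized counts of 9 cell type marker lists in the GPI gonad of each mouse, as a percentage of its vehicle gonad (log axis, line at 100%), 1 point per mouse. Endothelial, germ cell, macrophage, pericyte and interstitial progenitor sums lie below 100% and Sertoli and Leydig sums above it in 5 of 5 mice, and coelomic and mesonephric sums lie on both sides. The mean interstitial progenitor sum is lower through 1 gene, Nes (mean 6681.3 with vehicle and 2608.3 with GPI).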

How the data were processed

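The authors used STAR 2.5 for alignment to mm10 and featureCounts (Subread 1.5.0-p1, strand ignored) for RefSeq Curated genes, and deposited unnormalized counts, which entered the tests as they are. Depth ran from 10203679 to 15635322 counts per library. The libraries were amplified and carry no molecular identifiers, so errors are spreads between mice.

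With filterByExpr (at least 10 counts, 15 in total), 13941 genes were tested and 10529 were not. Differences were tested by edgeR 4.0.16 (R 4.3.3), with TMM scaling, a design of mouse and treatment, and Benjamini-Hochberg adjustment over all tested genes at an FDR of 0.05. The mouse block follows from gonads of the same embryo. Deviations from the treatment mean correlated by 0.06 on average within a mouse (-0.0398 to 0.155) and -0.0147 between mice. Libraries of 1 group differed beyond sampling noise (chi-square per degree of freedom 6.42 to 27.8). Log2 ratios and single-mouse directions used a prior count of 2. Exon lengths came from GENCODE M21 basic transcripts. The script was tested on simulated data.

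The 10 genes and all lists were chosen with earlier results of these data known. Named by rule were the 10 genes, the first 2 genes of each pathway list, its called genes (the 5 with the smallest p if more), Fgfr4, Fgfrl1, Spred1, Spred2, Il17rd, Dusp4, Etv1, the first and most abundant gene of each marker list by normalized count, and the 5 profiles most like Fgf9 and Dusp6. Some genes under this rule are not reported here. Cst9, Dppa3, Rnf17, Erg, Nes and C1qb, which lead a marker list per kilobase, were named after their values were seen.

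Alternatives were DESeq2 1.42.0, limma-voom (limma 3.58.1), no replicate block, DESeq2 size factors, library totals only, all genes kept, a minimum of 10 counts in each library, each mouse left out in turn and, for ratios, a prior count of 0.5 and sign flips within mice. Descriptions and plots used pandas 2.3.3, numpy 2.4.6 and matplotlib 3.10.9 under Python 3.11.15.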

Additional observations from a re-analysis of the deposited data

Results flagged for a closer look

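In 2 groups of values, 1 library lay apart from the others. The vehicle gonad of mouse M1 had 1338.7 normalized counts of Fgfr1, and its gap to the next vehicle gonad was 0.769 of the range of the group, above Dixon's 95% critical value of 0.71 for 5 values. The same library had a sum of macrophage markers of 861.5 normalized counts, with a gap of 0.727 of the range. It also had the highest sum of mesonephric epithelium markers among the vehicle gonads (706.5), which did not pass the critical value, and the part of these markers in the Fgfr1 value was not tested. Without mouse M1 the log2 fold change of Fgfr1 was -0.43. In all, 52 groups of values were examined, and chance marks about 1 in 20 such groups.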

How the results depend on the processing

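Fgfr1, Spry1 and Spry4 were called lower in each of 12 alternatives, Dusp6 in 11 and Fgfr3 in 9. Of 108 values of the 9 tested genes, 104 kept their direction and their side of the threshold, and 4 kept only the direction. Of 620 values of 52 named genes, 580 kept both, 27 lost the call, 2 gained one and 11 changed sign. Leaving out 1 mouse gave 3 (without M3) to 5 of the 10 genes called, all of them lower. It gave 969 (without M3) to 1430 genes called higher, and 5 (without M3) to 8 pathway genes called higher, which were also 5 with library totals only. Without the replicate block (an unpaired fit), 3108 genes were called, 2922 of them among the 3198 of the paired fit, and no call among the 10 genes changed. The values that changed sign were those of Frs2, Lhx9 and Fgfr4, none of them called. Frs2 was at -0.01 with DESeq2, -0.01 with DESeq2 size factors, -0.05 with library totals, -0.00 without the low-count filter, -0.01 with at least 10 counts in every library, and -0.02 to 0.02 with 1 mouse left out. Lhx9 was at -0.02 with library totals and -0.07 to 0.09 with 1 mouse left out, and Fgfr4, at 0.26 in all mice, ran from -0.09 without M5 to 0.50 without M3. The log2 ratio of Spry4 to Spry1, not called, differed by -0.18 in all mice and by -0.33 (without M2) to 0.06 (without M5) with 1 mouse left out. That of Fgfr3 to Fgfr2 passed the threshold unpaired (exact permutation p adjusted to 0.0417) and not in the sign flip within mice (adjusted 0.219). The cause of these changes was not tested, and fits that leave out a mouse have fewer samples. Depth limits what can be said of Etv4 (1 to 22 counts) and Fgf7 (1 to 39 counts).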
